A study of Mus musculus with 9 samples.

Results

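The EGF-family ligands and their ERBB receptors were examined in the uterus of mice with and without uterine *Wnk1*, the gene of a kinase best known as a regulator of ion transport. The members were chosen by gene symbol: 6 ligands (*Egf*, *Tgfa*, *Hbegf*, *Areg*, *Ereg* and *Btc*) and 4 receptors (*Egfr*, *Erbb2*, *Erbb3* and *Erbb4*). All 10 were present among the 31274 entries of the expression table. *Tgfa*, the ligand with the highest control level, was lower in *Wnk1d/d* uteri and was the only member that passed the test, while the values of *Egfr*, the receptor it binds, lay close together in the 2 genotypes. *Erbb2* and *Erbb3* had lower means in *Wnk1d/d* uteri without passing the test, and *Hbegf* did not pass it either. The other 4 ligands were too low for this test and were compared by permutation. The genotypes overlapped for every tested member, *Tgfa* included, and *Tgfa* passed in 4 of 9 fits that left out 1 library.

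RNA-Seq was performed on whole uteri of C57BL/6 females, with a library for each of 4 *Wnk1fl/fl* and 5 *Wnk1d/d* mice. Both genotypes carried *loxP* sites around exon 2 of *Wnk1* on both alleles, and *Wnk1d/d* mice also carried 1 *PGR-Cre* allele, in which the progesterone receptor gene drives the recombinase. All females were virgins that had mated with vasectomized males and were examined on pseudopregnancy day 4.5, when the uterus is receptive but holds no embryos. The labels give no age. As a model *Wnk1d/d* is limited in that cells without the progesterone receptor, such as immune and endothelial cells, keep WNK1, whereas the ovary and pituitary also undergo recombination.

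EGF-family ligands are made as membrane-anchored precursors that metalloproteases of the ADAM family release. TGFA, EGF and AREG bind EGFR, and HBEGF, BTC and EREG bind both EGFR and ERBB4. ERBB2 has no known ligand of its own and acts as a partner of the other receptors, and ERBB3 binds neuregulins and has an impaired kinase, so that it signals through its partners. In the mouse uterus *Areg* is known to be induced by progesterone in the luminal epithelium before attachment, and *Hbegf* to be expressed in the luminal epithelium beside the blastocyst.

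Expression was given as FPKM, a count of sequenced fragments divided by exon length and by library size, which is a level per length and lets genes be compared with each other. FPKM does not state how many fragments were counted, so absolute depth is unknown. The worth of 1 fragment relative to the other libraries, read from the steps of 20 low entries, lay between 0.821 and 1.18. Only entries whose values above 0 lay close together across libraries were used, 4 to 11 per library. A wide spread could therefore not appear, and this range does not show that the libraries were alike in depth. Across genes, which are not independent replicates, log2(FPKM + 1) correlated at 0.942 to 0.969 within a genotype and 0.906 to 0.956 between genotypes. *Wnk1* itself was 45.3 ± 1.62 FPKM (SD, n = 4) in *Wnk1fl/fl* and 31.2 ± 1.62 FPKM (SD, n = 5) in *Wnk1d/d* uteri, without overlap. FPKM covers the whole gene, whereas recombination removes exon 2 only, so these values do not measure how much WNK1 was lost. The paper reported reduced WNK1 protein in whole *Wnk1d/d* uteri. Genes of uterine epithelium, stroma and smooth muscle were detected in every library, as the label of whole uterus requires. The summed FPKM of 7 smooth muscle genes was 2968 to 6681 in *Wnk1fl/fl* and 7491 to 14104 in *Wnk1d/d* libraries, and all 7 genes rose. That of 7 endothelial genes was 384 to 424 and 152 to 314, and all 7 fell, 6 of them past the test and fold criterion given below. A set of 7 liver genes summed to 162 FPKM in *Wnk1fl/fl* replicate 4 and to between 3.69 and 26.9 FPKM in the other 8 libraries, and *Wnk1d/d* replicate 2 held the lowest smooth muscle and the highest endothelial sum of its genotype. In *Wnk1d/d* replicate 4 a single entry took 70.3% of the summed FPKM, against at most 13.8% in the other libraries, while its median log2(FPKM + 1) over the tested genes (3.79) was close to theirs (3.80 to 3.82). Values without these libraries are given where leaving 1 of them out moved a result.

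Levels of the members differed widely in control uteri. *Erbb2* was highest, followed by *Erbb3*, *Egfr*, *Tgfa*, *Hbegf*, *Btc*, *Egf*, *Areg*, *Erbb4* and *Ereg*. *Erbb2* and *Erbb3* overlapped and kept their order in 3 of 4 control libraries, and *Tgfa* and *Hbegf* kept theirs in 4 of 4 although their ranges overlapped. *Egfr* lay below every *Erbb3* value and above every *Tgfa* value. In *Wnk1d/d* uteri the order from *Erbb2* to *Areg* was the same by mean level, but *Tgfa* exceeded *Hbegf* in only 2 of 5 libraries. The last places, held by *Ereg* and *Erbb4*, rest on values at or near 0 and their order carries no weight.

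**Figure D1:**
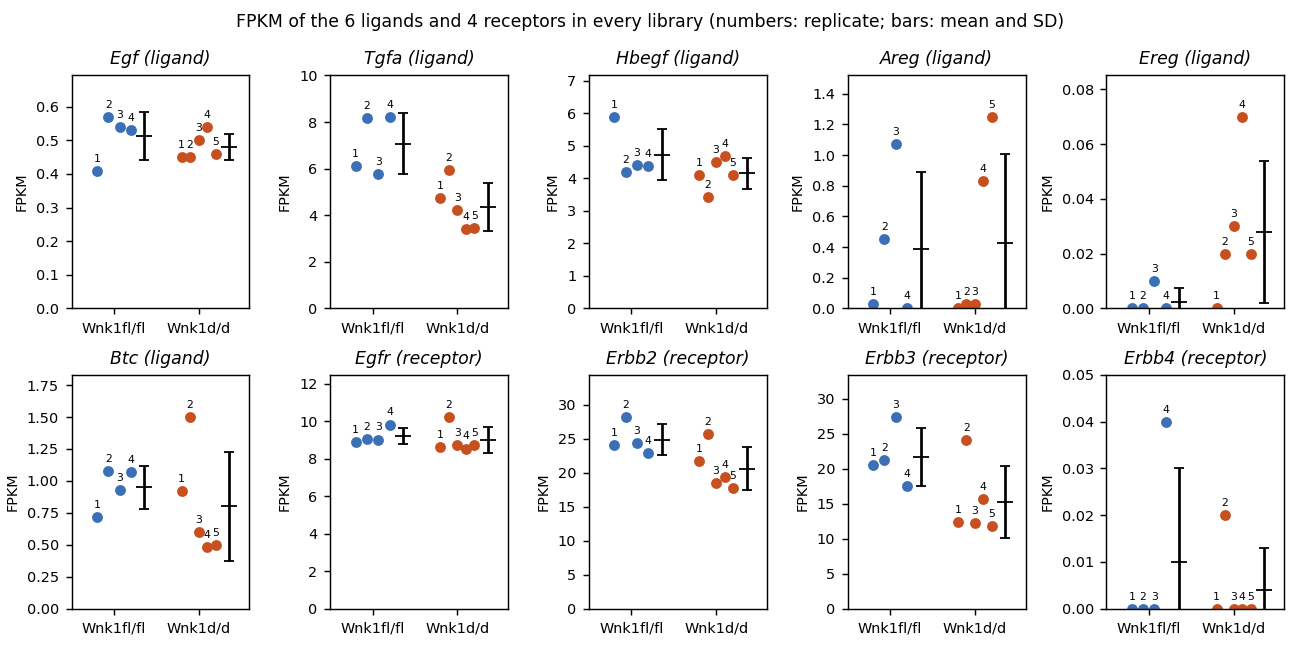
FPKM (vertical axes, each from 0 and scaled separately) of the 6 ligands and 4 receptors in the 4 *Wnk1fl/fl* (blue) and 5 *Wnk1d/d* (orange) libraries, with replicate numbers beside the points and the mean and SD beside each group (bars that would pass below 0 end at the axis). *Tgfa* is below 5 FPKM in 4 of 5 *Wnk1d/d* libraries and above 5 FPKM in the 4 control libraries, *Egfr* stays between 8.55 and 10.23 FPKM in all 9, and *Wnk1d/d* replicate 2 is the highest of its genotype for all 3 receptors that exceed 1 FPKM.

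The 5 members with a mean above 1 FPKM in at least 1 genotype were tested along with all other such genes, 14728 in all: 2 ligands (*Tgfa* and *Hbegf*) and 3 receptors (*Egfr*, *Erbb2* and *Erbb3*). Each of the 5 was above 1 FPKM in both genotypes. A differentially expressed gene (DEG) had a limma adjusted p under 0.05 and genotype means that differed at least 1.5 times. Over all tested genes 10.3% were DEGs, 5.09% higher and 5.18% lower in *Wnk1d/d* uteri. Of the 5 tested members 1 was a DEG, *Tgfa*, and it was lower. The 2 genotypes overlapped for each of the 5, whereas 19.9% of all tested genes had no overlap. All 5 had a log2 fold change below 0, as had 49.5% of all tested genes.

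*Tgfa* encodes transforming growth factor alpha, an EGFR ligand, and lies on the plus strand of chromosome 6 (mm10, chr6:86195223-86275719, GENCODE release M21). Its FPKM was 6.10, 8.17, 5.78 and 8.23 in *Wnk1fl/fl* replicates 1 to 4 and 4.72, 5.95, 4.24, 3.43 and 3.44 in *Wnk1d/d* replicates 1 to 5. Of the *Wnk1d/d* libraries 4 lay below every control, and replicate 2 lay between the controls. The mean fell from 7.07 ± 1.31 (SD, n = 4) to 4.36 ± 1.05 FPKM (SD, n = 5), which is 0.616 times the control mean. The log2 fold change of FPKM + 1, a scale that understates changes of low genes, was -0.60 with a standard error of 0.16 and a 95% interval of -0.95 to -0.25 (limma, adjusted p = 0.027). An exact two-sided permutation test over all 126 ways to divide the libraries, 1 of 10 such tests for the members, gave p = 0.024, where the smallest p that the design allows is 0.0079. The call rested on single libraries: the log2 fold change stayed between -0.70 and -0.53 when each library was left out in turn, but the adjusted p passed 0.05 without *Wnk1fl/fl* replicate 2 (0.065), *Wnk1fl/fl* replicate 4 (0.076), *Wnk1d/d* replicate 3 (0.060), *Wnk1d/d* replicate 4 (0.056) or *Wnk1d/d* replicate 5 (0.060).

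The sequence before the start of *Tgfa* is shown because it is the member whose transcript level fell. It comprises the 250 bases upstream of the annotated start from RefSeq (GRCm38.p6, plus strand, chr6:86194972-86195221), written 5′ to 3′ with matches to the GC box GGGCGG, read on either strand, in capitals.
Tgfa: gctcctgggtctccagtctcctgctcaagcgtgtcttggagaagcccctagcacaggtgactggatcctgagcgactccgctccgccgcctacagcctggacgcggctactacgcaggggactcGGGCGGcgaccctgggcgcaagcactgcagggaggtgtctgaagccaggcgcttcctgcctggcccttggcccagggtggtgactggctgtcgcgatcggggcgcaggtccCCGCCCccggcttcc
The window held 2 GC boxes, of the kind that 32.7% of all 32817 such windows hold at least once, and none of the other 3 motifs searched on both strands, the TATA box TATAAA, the AP-1 site TGANTCA and the cyclic AMP response element TGACGTCA. Its GC content was 69.2%, against a median of 52.4% over all windows. A match describes letters only and is no evidence of binding. A window was given for 7 of the 10 members.

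*Hbegf*, which encodes heparin-binding EGF-like growth factor, was 5.89, 4.18, 4.42 and 4.39 FPKM in the control libraries and 4.09, 3.41, 4.49, 4.67 and 4.10 FPKM in *Wnk1d/d* replicates 1 to 5. The genotypes overlapped, and control replicate 1 stood above all other libraries. The means were 4.72 ± 0.787 (SD, n = 4) and 4.15 ± 0.485 FPKM (SD, n = 5), with a log2 fold change of -0.15 (standard error 0.11, 95% interval -0.39 to 0.10, limma adjusted p = 0.34). A decrease as large as that of *Tgfa* lies outside this interval, but the interval for *Tgfa* itself overlaps it, and the 2 changes were not tested against each other. Unlike *Tgfa*, *Hbegf* was lowest of its genotype in *Wnk1d/d* replicate 2. The ratio of *Tgfa* to *Hbegf* was 1.04, 1.95, 1.31 and 1.87 in the control libraries and 1.15, 1.74, 0.94, 0.73 and 0.84 in the *Wnk1d/d* libraries, so that *Tgfa* was the lower of the pair in 3 of 5 *Wnk1d/d* libraries and in no control.

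The other 4 ligands were under the filter. *Egf*, the founding member of the family, was 0.41, 0.57, 0.54 and 0.53 FPKM in control and 0.45, 0.45, 0.50, 0.54 and 0.46 FPKM in *Wnk1d/d* libraries. All *Wnk1d/d* values lay within the control range (exact two-sided permutation test, p = 0.44). *Btc*, which encodes betacellulin, was 0.72, 1.08, 0.93 and 1.07 FPKM in control and 0.92, 1.5, 0.60, 0.48 and 0.50 FPKM in *Wnk1d/d* libraries, and its control mean of 0.95 FPKM fell just short of the filter. Of the *Wnk1d/d* libraries 3 lay below every control and replicate 2 above all of them, and the permutation test gave p = 0.43 (exact, two-sided). The difference of mean log2(FPKM + 1), -0.14 with all libraries, was -0.27 without *Wnk1d/d* replicate 2 (exact two-sided permutation p = 0.057), -0.08 without *Wnk1d/d* replicate 4 (p = 0.69) and -0.08 without *Wnk1d/d* replicate 5 (p = 0.69).

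*Areg*, which encodes amphiregulin, varied more within each genotype than between them. It was 0.03, 0.45, 1.07 and 0 FPKM in the control libraries and 0, 0.03, 0.03, 0.83 and 1.25 FPKM in *Wnk1d/d* replicates 1 to 5. Both genotypes thus held libraries at 0 and libraries near or above 0.8 FPKM (exact two-sided permutation test, p = 0.97). Its upstream window (RefSeq, GRCm38.p6, plus strand, chr5:91139349-91139598) is shown because *Areg* ranged from 0 to above 1 FPKM in both genotypes and because the window held 3 of the 4 motifs, a cyclic AMP response element, a GC box and a TATA box in this order toward the start, all in capitals.
Areg: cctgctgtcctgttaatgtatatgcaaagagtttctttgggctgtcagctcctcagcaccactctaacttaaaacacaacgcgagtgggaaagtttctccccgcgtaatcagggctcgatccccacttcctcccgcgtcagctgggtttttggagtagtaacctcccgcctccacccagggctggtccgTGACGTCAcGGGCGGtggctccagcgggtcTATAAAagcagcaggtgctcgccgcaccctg
None of these matches overlaps another. The response element TGACGTCA occurs in 1.55% and the TATA box TATAAA in 12.4% of the 32817 windows, and the AP-1 site TGANTCA, absent here, in 6.75%. The response element ends 54 and the TATA box 26 bases before the start.

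*Ereg*, which encodes epiregulin, was listed at 0 in 3 control libraries and at 0.01 FPKM in the other, and at 0, 0.02, 0.03, 0.07 and 0.02 FPKM in the *Wnk1d/d* libraries. The difference did not pass the exact two-sided permutation test (p = 0.063), and levels this close to 0 cannot be told from no transcript without fragment counts. *Ereg*, *Areg* and *Btc* lie side by side with *Epgn*, a further EGF-family ligand, within 375.5 kb of chromosome 5 (mm10), and these 4 are the only protein-coding genes that GENCODE release M21 places within this stretch. *Epgn* starts at 91027464, *Ereg* at 91074622 and *Areg* at 91139599, all on the plus strand, and *Btc* spans 91357261 to 91402994 on the minus strand. The highest value of any of the 4 in any library was 1.5 FPKM, for *Btc* in *Wnk1d/d* replicate 2.

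Among the 3 tested receptors, *Egfr* varied least. Its FPKM was 8.92, 9.06, 9.03 and 9.83 in control and 8.65, 10.23, 8.76, 8.55 and 8.76 in *Wnk1d/d* libraries. In *Wnk1d/d* uteri 4 libraries lay just below every control and replicate 2 above them all. The means were 9.21 ± 0.418 (SD, n = 4) and 8.99 ± 0.699 FPKM (SD, n = 5). The log2 fold change was -0.03 (standard error 0.07, 95% interval -0.19 to 0.12, limma adjusted p = 0.75), an interval that does not reach the decrease of *Tgfa*. The gene lies on chromosome 11 (mm10, chr11:16752203-16918158, plus strand). Its upstream window (RefSeq, GRCm38.p6, plus strand, chr11:16751953-16752202) is shown beside that of its ligand, with its GC box in capitals.
Egfr: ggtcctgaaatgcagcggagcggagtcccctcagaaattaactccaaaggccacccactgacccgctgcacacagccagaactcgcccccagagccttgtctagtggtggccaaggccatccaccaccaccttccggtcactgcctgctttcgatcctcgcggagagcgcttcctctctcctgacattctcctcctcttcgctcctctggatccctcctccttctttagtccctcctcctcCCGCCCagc
The box, read on the minus strand, ends 4 bases before the start, and the GC content was 60.8%. Like the window of *Tgfa*, it held no TATA box.

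*Erbb2*, on chromosome 11 as well (chr11:98412470-98437716, plus strand), had the highest level of all members. It was 24.10, 28.20, 24.31 and 22.84 FPKM in control and 21.74, 25.71, 18.56, 19.39 and 17.69 FPKM in *Wnk1d/d* libraries. Again 4 of 5 *Wnk1d/d* libraries lay below every control and replicate 2 lay between the controls. The means were 24.9 ± 2.32 (SD, n = 4) and 20.6 ± 3.22 FPKM (SD, n = 5). The log2 fold change was -0.27 (standard error 0.11, 95% interval -0.51 to -0.02), which did not pass the adjustment over all genes (limma adjusted p = 0.11) or the exact two-sided permutation test (p = 0.079). Without *Wnk1d/d* replicate 2 it was -0.35, with a limma adjusted p of 0.020.

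*Erbb3*, on chromosome 10 (chr10:128567523-128589652, minus strand), was 20.49, 21.27, 27.36 and 17.52 FPKM in control and 12.41, 24.07, 12.27, 15.64 and 11.84 FPKM in *Wnk1d/d* libraries. The same pattern was seen: 4 *Wnk1d/d* libraries lay below every control, and replicate 2 exceeded 3 of the 4 controls. The means were 21.7 ± 4.13 (SD, n = 4) and 15.2 ± 5.16 FPKM (SD, n = 5), a ratio of 0.704. The log2 fold change of -0.51 was nearly that of *Tgfa*, but its standard error of 0.21 was larger (95% interval -0.97 to -0.05, limma adjusted p = 0.098, exact two-sided permutation p = 0.079). Without *Wnk1d/d* replicate 2 it was -0.68, with a limma adjusted p of 0.0094, and *Erbb3* then was a DEG along with *Tgfa*. Leaving out any other single library called neither *Erbb2* nor *Erbb3*.

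*Erbb4* was listed at 0 in 7 of 9 libraries, and at 0.04 FPKM in control replicate 4 and 0.02 FPKM in *Wnk1d/d* replicate 2. No difference could be detected at this level (exact two-sided permutation test, p = 0.72). Of the 2 receptors to which the 6 ligands bind directly, only *Egfr* was thus present at a level above 0.04 FPKM in any library.

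**Figure D2:**
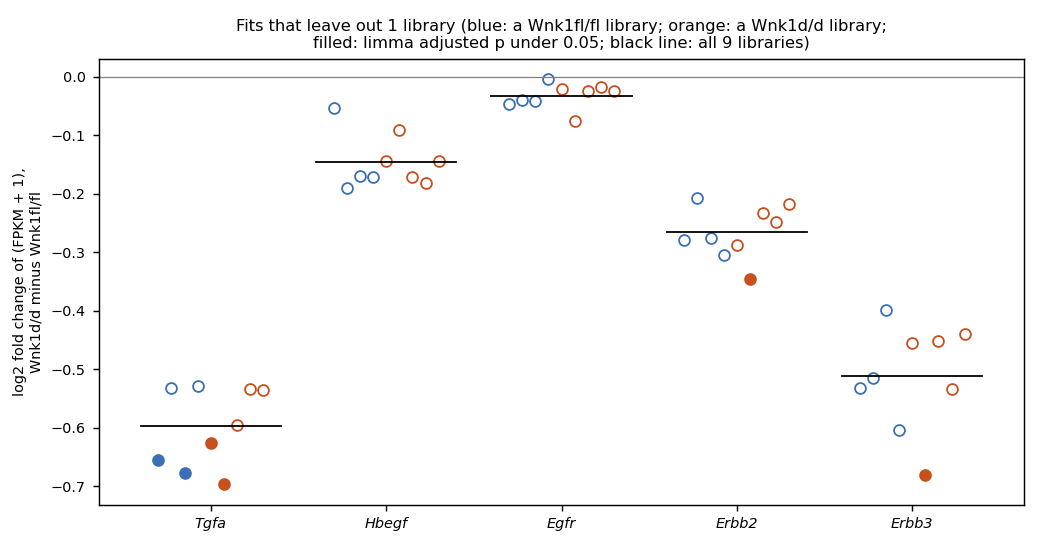
Log2 fold change of FPKM + 1 (*Wnk1d/d* minus *Wnk1fl/fl*, vertical axis) of the 5 tested members when each of the 9 libraries was left out in turn. Each circle is a fit, blue where a control and orange where a *Wnk1d/d* library was left out, filled where the limma adjusted p was under 0.05, and the black line is the fit of all 9 libraries. Every fit of every member lies below 0, the filled circles are 4 of 9 for *Tgfa* and 1 of 9 for *Erbb2* and *Erbb3*, and that 1 is the fit without *Wnk1d/d* replicate 2.

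Ligands and receptors were then compared as groups, as a description without a test, since members are not replicates. The median log2 fold change was -0.37 for the 2 tested ligands and -0.27 for the 3 tested receptors, a gap of -0.11, against 0.0030 over all tested genes. When each library was left out in turn this gap lay between -0.15 and -0.05. With 2 and 3 members these medians say no more than the single values above.

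The summed FPKM of the 6 ligands was 12.8 to 14.5 in control and 9.77 to 11.4 in *Wnk1d/d* libraries, without overlap. Each of the 6 ligands overlapped by itself, and 10.6% of all single tested genes were lower in *Wnk1d/d* uteri without overlap. *Tgfa* made up 51.5 ± 6.59% of this sum in control (SD, n = 4) and 42.2 ± 7.64% in *Wnk1d/d* libraries (SD, n = 5), and *Hbegf* 34.8% and 40.8%. The summed FPKM of the 4 receptors was 50.2 to 60.7 in control and 38.3 to 60.0 in *Wnk1d/d* libraries and did overlap, through *Wnk1d/d* replicate 2. *Erbb2* made up 44.7% and 46.2% of it, *Erbb3* 38.6% and 33.4%, and *Egfr* 16.6% and 20.4%. Receptor transcripts exceeded ligand transcripts 4.10 ± 0.504 times in control and 4.35 ± 0.548 times in *Wnk1d/d* uteri, a difference smaller than the spread within each genotype. The ratio of *Erbb3* to *Egfr* was 2.30, 2.35, 3.03 and 1.78 in control libraries and 1.43, 2.35, 1.40, 1.83 and 1.35 in *Wnk1d/d* libraries, so both genotypes had *Erbb3* above *Egfr* in every library.

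**Figure D3:**
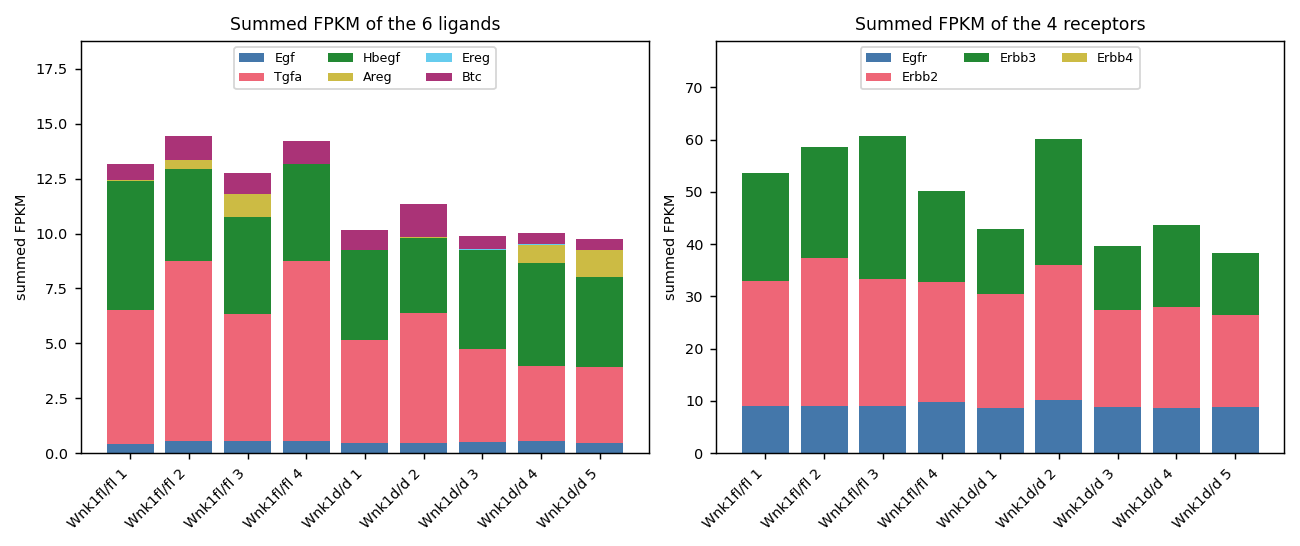
Summed FPKM (vertical axes, from 0) of the 6 ligands, left, and the 4 receptors, right, in each of the 9 libraries, with every bar divided by member. The ligand sum is lower in all 5 *Wnk1d/d* libraries than in the 4 controls, largely in the segment of *Tgfa*, and the receptor sum of *Wnk1d/d* replicate 2 is 60.0, within the control range of 50.2 to 60.7.

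Summed levels of cell type genes differed between the genotypes, and in whole tissue fewer cells of a type and less RNA per cell cannot be told apart. *Tgfa* was lowest, at 3.43 and 3.44 FPKM, in *Wnk1d/d* replicates 4 and 5, which had the largest smooth muscle sums (14104 and 13539 FPKM), and highest, at 8.23 and 8.17 FPKM, in control replicates 4 and 2, which had the smallest (2968 and 4333 FPKM). *Wnk1d/d* replicate 2, the highest of its genotype for *Tgfa*, *Erbb2* and *Erbb3*, had the smallest smooth muscle sum of its genotype at 7491 FPKM. Neither genotype followed this order for *Erbb2* and *Erbb3*. Control replicate 4, with the smallest sum of all, had the lowest control values of both (22.84 and 17.52 FPKM). The highest *Erbb3* (27.36 FPKM) was in control replicate 3, with a sum of 5468 FPKM. *Wnk1d/d* replicate 4, with the largest sum, had more *Erbb3* (15.64 FPKM) than replicates 1, 3 and 5 (12.41, 12.27 and 11.84 FPKM). Its *Erbb2* (19.39 FPKM) was above that of replicates 3 and 5 (18.56 and 17.69 FPKM). *Tgfa* also left the order among the controls, with 5.78 FPKM in replicate 3 and 6.10 FPKM in replicate 1, which had the larger sum (6681 FPKM). The part of smooth muscle content in these differences was not tested. The summed FPKM of 8 epithelial genes, *Epcam* and *Cdh1* among them, was 1057 to 1546 in control and 1133 to 1691 in *Wnk1d/d* libraries, so that the ranges overlapped and the *Wnk1d/d* mean was the higher.

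The members were therefore also set against the epithelial sum, a scaling chosen after the values had been seen and given without a test. Per 1000 FPKM of the epithelial genes, *Tgfa* was 5.83 ± 1.36 in control (SD, n = 4) and 3.14 ± 0.496 in *Wnk1d/d* libraries (SD, n = 5), with ranges of 4.69 to 7.79 and 2.79 to 4.0 that did not overlap. On this scale *Erbb2* was 20.4 ± 1.75 and 15.0 ± 1.86, also without overlap, and *Erbb3* 17.8 ± 3.55 and 11.1 ± 3.49, with overlap. Over all tested genes 8.38% did not overlap on this scale (6.29% were lower in *Wnk1d/d* uteri and did not overlap), and the scaling itself lowers *Wnk1d/d* values, since the mean epithelial sum was 1233 FPKM in control and 1381 FPKM in *Wnk1d/d* uteri. *Egfr* was 7.65 and 6.62 and *Hbegf* 3.95 and 3.09. Neither *Tgfa* nor *Erbb2* was separated in this way before scaling. Other marker sums moved with genotype as well. That of 6 glandular genes was 6592 to 10406 FPKM in control and 817 to 2718 FPKM in *Wnk1d/d* libraries. Of these genes 3 were DEGs and lower, while 2 had a log2 fold change above 0. The paper reported more glands and higher *Foxa2*, a gene of this list, in *Wnk1d/d* uteri, so the sum does not measure gland number. For 7 stromal genes the sum was 1950 to 2324 and 1638 to 1966 FPKM, with 1 gene higher and 2 lower. The sum of 6 leukocyte genes overlapped (48.4 to 99.0 and 39.0 to 71.2 FPKM) and none of them was a DEG, whereas the sums of 6 ovary and oviduct genes (28.4 to 35.3 and 47.7 to 103 FPKM) and 4 fat genes (1.85 to 5.94 and 7.15 to 18.1 FPKM) were higher in every *Wnk1d/d* library, with 1 gene higher in each list. Only 4 of the ovary and oviduct genes, 1 of them with a log2 fold change below 0, and 1 of the fat genes passed the filter. The part of these marker sums was not tested either.

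**Figure D4:**
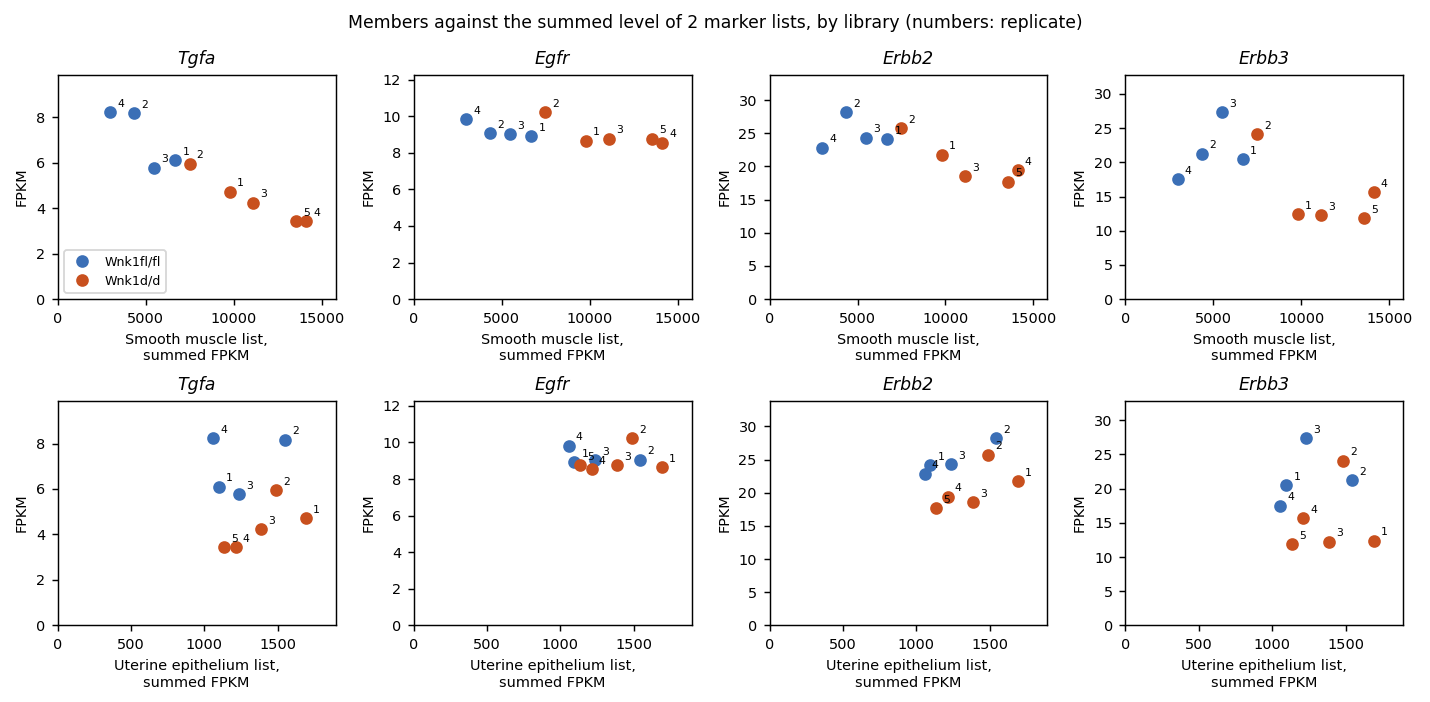
FPKM of *Tgfa*, *Egfr*, *Erbb2* and *Erbb3* (vertical axes, from 0) against the summed FPKM of 7 smooth muscle genes (upper row) and 8 epithelial genes (lower row) in the same library, with replicate numbers beside the points (blue, *Wnk1fl/fl*, and orange, *Wnk1d/d*). Smooth muscle sums are 2968 to 6681 in control and 7491 to 14104 in *Wnk1d/d* libraries, *Tgfa* is 8.23 FPKM at the smallest and 3.43 FPKM at the largest of them, and the epithelial sums of the genotypes overlap.

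The members were also compared within genotypes, as a description. After each genotype's mean was subtracted from log2(FPKM + 1), Pearson's r over the 9 libraries was 0.76 between *Tgfa* and *Egfr*, 0.72 between *Tgfa* and *Erbb2*, 0.70 between *Erbb2* and *Erbb3* and 0.26 between *Tgfa* and *Erbb3*. *Hbegf* ran the other way, at -0.67 with *Tgfa* and -0.66 with *Egfr*. The points share their libraries, and *Wnk1d/d* replicate 2 was an extreme of its genotype in each of these genes. Over the 8 libraries without it, left out after the values had been seen, r was 0.52 between *Tgfa* and *Egfr* and 0.46 between *Tgfa* and *Erbb2*. It was 0.21 between *Erbb2* and *Erbb3*, -0.61 between *Tgfa* and *Erbb3*, -0.48 between *Hbegf* and *Tgfa* and -0.41 between *Hbegf* and *Egfr*. These values thus rested in large part on 1 library, and that of *Tgfa* and *Erbb3* changed sign. The sign also changed between *Egfr* and *Erbb2* (0.53 to -0.45), *Egfr* and *Erbb3* (0.54 to -0.66) and *Hbegf* and *Erbb3* (-0.43 to 0.07). Between *Hbegf* and *Erbb2* r went from -0.58 to -0.28. With *Wnk1fl/fl* replicate 4 left out instead, every pair kept its sign. *Tgfa* then had r of 0.72 with *Egfr*, 0.92 with *Erbb2* and 0.44 with *Erbb3*. Among the receptors r was 0.77 between *Egfr* and *Erbb2*, 0.83 between *Egfr* and *Erbb3* and 0.67 between *Erbb2* and *Erbb3*. For *Hbegf* it was -0.66 with *Tgfa*, -0.66 with *Egfr*, -0.68 with *Erbb2* and -0.55 with *Erbb3*. The tested genes with the pattern most like *Tgfa* by this measure were *Rgag4* (r = 0.98), *Gmip* (r = 0.97) and *Capn5* (r = 0.97), over 9 libraries each, and none of them was a DEG. They are the highest of all 14728 tested genes, so values this high can arise by selection alone. They were not recomputed without *Wnk1d/d* replicate 2.

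Further genes of the pathway, 62 in all in 6 lists, were read in the same fit. All 62 were in the table (*Nrdc* under its older symbol *Nrd1*), and 59 passed the filter. Of these 3 were DEGs, 2 higher and 1 lower (5.08%, against 10.3% of all tested genes), and 14 had an adjusted p under 0.05 irrespective of fold, 8 higher and 6 lower (23.7%, against 22.1%). Their median log2 fold change was -0.0031, against 0.0030 over all tested genes.

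Among 5 other ligands, *Epgn*, *Nrg1* and *Nrg3* were under the filter, and neither *Nrg2* nor *Nrg4* passed the test (smallest adjusted p 0.81, for *Nrg4*, with means of 4.82 and 4.63 FPKM). The neuregulins are the ligands of ERBB3 and ERBB4.

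Of 9 genes of ligand release 1 was a DEG. *Adam12*, a metalloprotease that can cleave HBEGF, was 3.74, 5.14, 5.41 and 3.34 FPKM in control and 7.87, 6.87, 10.85, 9.49 and 9.75 FPKM in *Wnk1d/d* libraries. Every *Wnk1d/d* value was above every control value, and the mean rose from 4.41 to 8.97 FPKM, a log2 fold change of 0.89 with a standard error of 0.15 (limma adjusted p = 0.0068). *Adam9* also rose (log2 fold change 0.55, adjusted p = 0.0064) and *Rhbdf1*, which encodes an inactive rhomboid that helps to bring ADAM17 to the surface, fell (-0.31, adjusted p = 0.046), both by less than 1.5 times. *Adam17*, the chief sheddase of TGFA, had a log2 fold change of -0.07 (adjusted p = 0.54) and *Adam10*, which releases EGF and BTC, of -0.02 (adjusted p = 0.88).

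No DEG was found among 13 inhibitors of the receptors. *Ptpn1*, a tyrosine phosphatase of the receptors, rose by 0.27 on the log2 scale (adjusted p = 0.027) and *Cblb*, a ubiquitin ligase, fell by 0.33 (adjusted p = 0.040). *Errfi1*, a feedback inhibitor of EGFR, had means of 121 and 141 FPKM (log2 fold change 0.23, adjusted p = 0.24), and *Lrig1*, which promotes receptor degradation, a log2 fold change of 0.35 (adjusted p = 0.095).

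Among 17 adaptors and first effectors, *Gab1*, which docks PI3K and SHP2 to activated receptors, was the DEG. Its FPKM was 19.07, 19.75, 20.78 and 17.33 in control and 10.90, 10.60, 8.23, 11.29 and 9.95 in *Wnk1d/d* libraries. The genotypes were apart by more than the spread of either, with means of 19.2 and 10.2 FPKM, a log2 fold change of -0.86 with a standard error of 0.09 (limma adjusted p = 0.0017). By adjusted p alone *Grb2* (0.21, adjusted p = 0.038), *Ptpn11* (0.29, adjusted p = 0.022) and *Crk* (0.38, adjusted p = 0.0089) were higher, and *Shc2* (-0.37, adjusted p = 0.016) and *Plcg1* (-0.54, adjusted p = 0.020) were lower in log2 fold change.

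The RAS-ERK kinases held no DEG among 10, and only *Map2k1* had an adjusted p under 0.05 (log2 fold change 0.22, adjusted p = 0.025). Of 8 genes of ERK feedback, *Dusp5*, a nuclear ERK phosphatase, was a DEG with 2.38, 1.70, 2.30 and 2.08 FPKM in control and 2.89, 3.02, 4.18, 3.71 and 3.13 FPKM in *Wnk1d/d* libraries. It was higher in every *Wnk1d/d* library, and its mean rose from 2.12 to 3.39 FPKM, a log2 fold change of 0.49 with a standard error of 0.11 (limma adjusted p = 0.017). *Dusp6*, a cytoplasmic ERK phosphatase, fell by 0.38 on the log2 scale (adjusted p = 0.023), by less than 1.5 times. The 2 phosphatases therefore differed in direction.

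**Figure D5:**
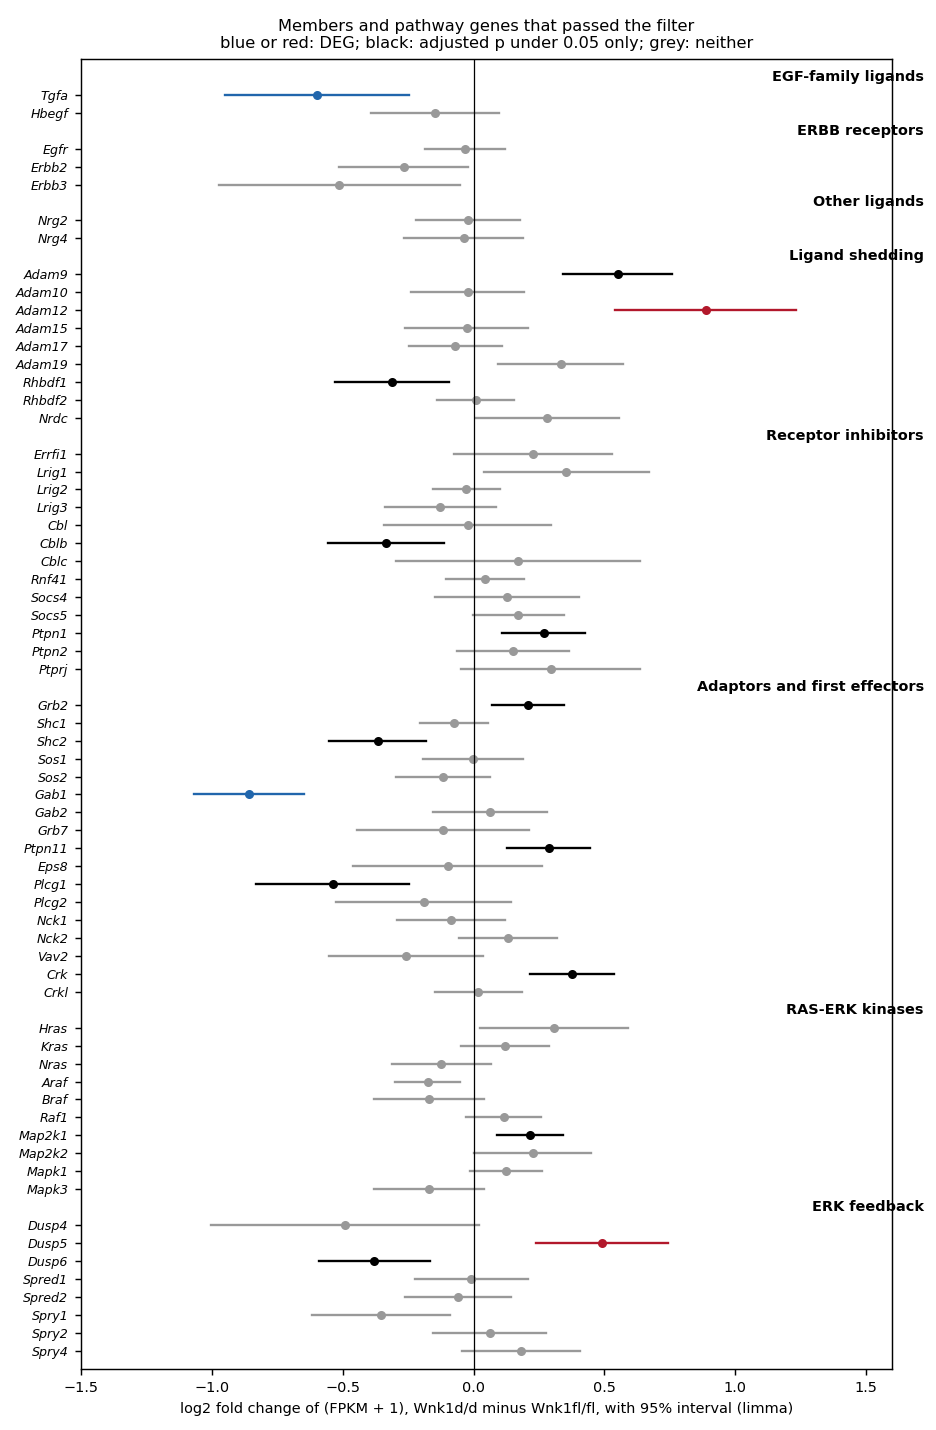
Log2 fold change of FPKM + 1 (*Wnk1d/d* minus *Wnk1fl/fl*, horizontal axis) with its 95% interval from limma for the 5 tested members and the 59 tested genes of the 6 pathway lists. DEGs are red (higher) or blue (lower), genes with only an adjusted p under 0.05 black and all others grey, and the 4 DEGs shown are *Tgfa*, *Adam12*, *Gab1* and *Dusp5*.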

How the data were processed

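The authors built a TruSeq library from uterine RNA of each mouse, sequenced paired ends on an Illumina HiSeq, aligned the reads to mm10 with TopHat 2.0.4 (version per the submitters' processing notes) and deposited FPKM from Cufflinks (2.0.2 in those notes, while the methods name another version), without pooling replicates. The gene annotation is not given in the sources used here. The 9 columns were mapped by their labels, and 0 columns belonged to other samples. Replicate numbers come from the sample titles.

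From the deposited FPKM, log2(FPKM + 1) was fitted with limma 3.58.1 in R 4.3.3 (trend, unpaired) for the 14728 genes with a mean above 1 FPKM in at least 1 genotype, with Benjamini-Hochberg adjustment over all of them. The study's DEG thresholds were kept. Cuffdiff needs reads and was not run. Depth is unknown, so no counting intervals were given. Exact two-sided permutation tests were used for single members (SciPy 1.17.1, NumPy 2.4.6, pandas 2.3.3, Python 3.11.15). The fit was tested on simulated data. Coordinates came from GENCODE release M21 by symbol, and upstream windows from RefSeq. The RefSeq table held no window for *Hbegf*, *Ereg* or *Erbb3*.

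The members, the pathway and marker lists, the tests and the alternatives were chosen with earlier results of these data known. Named were all members, the DEGs of each list (without any, its gene with the smallest adjusted p), and the 3 genes most like each member that was a DEG. Other genes of the lists were picked with their values in view. Alternatives changed the pseudocount (0.1 or 0.01), the filter (none, or 5 FPKM), the scaling (by medians or quantiles), the limma settings (trend off, robust, or library weights), the fold criterion, the pairing (a replicate block) and the libraries, each left out in turn.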

Additional observations from a re-analysis of the deposited data

Results flagged for a closer look

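Single libraries stood apart from the others of their genotype by more than Dixon's 95% value in 6 of the 20 groups of member values. The groups share the same 9 libraries, so this count cannot be set against a chance rate. *Hbegf* was 5.89 FPKM in *Wnk1fl/fl* replicate 1 against 4.18 to 4.42 FPKM in the other controls. *Egfr* was 9.83 FPKM in *Wnk1fl/fl* replicate 4 against 8.92 to 9.06 FPKM in the other controls, and 10.23 FPKM in *Wnk1d/d* replicate 2 against 8.55 to 8.76 FPKM in the others of its genotype. Another 3 groups stood out by traces near 0: *Ereg* at 0.01 FPKM in *Wnk1fl/fl* replicate 3, *Erbb4* at 0.04 FPKM in *Wnk1fl/fl* replicate 4 and *Erbb4* at 0.02 FPKM in *Wnk1d/d* replicate 2, with all others of those groups at 0. In such a group any single trace passes Dixon's value. The libraries involved most, *Wnk1fl/fl* replicate 4 and *Wnk1d/d* replicate 2, are those whose liver gene sum (162 FPKM) and smooth muscle gene sum (7491 FPKM) stood at an end of their genotype. The part of either was not tested.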

How the results depend on the processing

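*Hbegf* and *Egfr* kept their direction and side of the threshold under every alternative that gave a value (*Hbegf* has none with a filter at 5 FPKM). The gap between ligands and receptors, which was not tested, kept its direction under every alternative that gave a value. Ranges when 1 library was left out were -0.19 to -0.05 for *Hbegf*, -0.08 to -0.0046 for *Egfr* and -0.15 to -0.05 for the gap, on the log2 scale. *Tgfa* stayed lower throughout, and its adjusted p missed the threshold under a replicate block and where some libraries were left out: it passed in 4 of 9 fits that left out a library (-0.70 to -0.53, adjusted p 0.0089 to 0.076). *Erbb2* and *Erbb3* passed it with library weights (-0.36 and -0.67, adjusted p 0.024 and 0.020) and without *Wnk1d/d* replicate 2, with leave-one-out ranges of -0.35 to -0.21 and -0.68 to -0.40. The count of members called was 1 as reported, 0 at a ratio of at least 2 and 0 to 2 when a library was left out. Pathway genes called numbered 14 without a fold criterion, 1 at a ratio of at least 2 and 3 to 4 when a library was left out, and DEGs over all genes numbered 3249, 550 and 1019 (without *Wnk1d/d* replicate 3) to 1869 (without *Wnk1d/d* replicate 2). *Areg* changed sign with pseudocounts of 0.1 (-0.051) and 0.01 (-0.10) and between -0.17 and 0.23 when a library was left out, and *Erbb4* lay between -0.014 and 0.0057 when a library was left out, above 0 only without *Wnk1fl/fl* replicate 4 (-0.069 and -0.26 with the smaller pseudocounts), both without passing a test. *Ereg* passed the exact permutation test with median scaling (p = 0.048) and without *Wnk1d/d* replicate 1 (p = 0.029). The causes were not tested. Shared replicate numbers belong to different mice, and deviations of same-numbered libraries correlated at -0.27 to 0.022, none best with its own number. A replicate block on these numbers gave 218 DEGs in the table, 0 members called, 1 pathway gene called and -0.54 for *Tgfa* (adjusted p = 0.10). Unknown depth limits the 5 members under the filter most.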
